A study of Mus musculus with 2 samples.

Results

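Genes of the germinal centre reaction were followed in T cell sorts from the lung tumours of chimeric mice: Rgs13, S1pr2, Mef2b and Bcl6, which mark germinal centre B cells, and Cxcr5, Il21 and Sh2d1a, which together with Bcl6 serve follicular helper T (Tfh) cells. The 7 members were chosen by symbol, among the 32285 genes of the deposited matrices, and were read in B cells and in Cd4-positive T cells. The study made a single-cell library from each of 2 groups of lethally irradiated mice that had received bone marrow. In both groups the host carried the same conditional alleles, among them Lkb1fl/fl, and the tumours had grown for 8 weeks after Ad-Cre, an adenovirus that delivers Cre recombinase, was given through the nose. In the group named WTKL the donor marrow was Tmem173fl/fl, with a floxed gene of the innate sensor STING and no Cre named. In the group named LYZKL it was Tmem173fl/fl;Lyz2-Cre, in which Cre is driven by the lysozyme 2 promoter of the myeloid lineage. Tamoxifen is named in the treatment given for WTKL but not in that for LYZKL. Mouse numbers, pooling and ages are not given in the sources used here. Each group is 1 library, so no difference has a replicate check and none was tested, and every interval given is a 95% interval that covers counting error only.

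A germinal centre forms in a B cell follicle when activated B cells divide, mutate their antibody genes and compete for help from Tfh cells. Bcl6 is the transcriptional repressor that both partners need, Mef2b is a transcription factor that acts upstream of Bcl6 in B cells, S1pr2 is a sphingosine 1-phosphate receptor that keeps cells inside the germinal centre, and Rgs13 is a regulator of G-protein signalling that dampens chemokine receptor signals. Cxcr5 is the receptor for the follicular chemokine Cxcl13, Il21 is the cytokine by which Tfh cells help B cells, and Sh2d1a encodes SAP, the adaptor of the SLAM family receptors that holds T and B cells together. Tumours can contain aggregates of B and T cells of this type, known as tertiary lymphoid structures.

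The libraries held 12204 (WTKL) and 13607 (LYZKL) barcodes with 77181312 and 93584629 unique molecular identifiers (UMIs, each standing for 1 captured transcript), and 10850 and 12004 cells were kept after filters and doublet removal. The labels state 6609 and 7202 cells. Exactly 100 barcodes occurred in both libraries, among them 4 of the WTKL and 0 of the LYZKL B-like cells and 33 and 31 of the Cd4-positive T cells. The sort was for CD4- and CD8-positive T cells, so any B cell present had passed a gate that should have removed it. Its purity is not given in the sources used here. T-lineage clusters held 7848 of the 10850 kept WTKL cells and 8342 of the 12004 kept LYZKL cells. Neutrophil-like cells numbered 1431 and 2218, and macrophage- or monocyte-like cells 935 and 1018. A cluster led by Ebf1, Bank1, Cd79a and Ms4a1 was called B-like and held 570 cells in WTKL and 376 in LYZKL, or 5.25% and 3.13% of the kept cells. Its 12 B cell markers were all detected and summed to 11269 and 11719.5 CPM (UMIs of a gene per 1000000 UMIs of the class). Its 9 T-lineage markers were also all detected, at 601 and 197 CPM in sum, so the WTKL B-like class held more T cell RNA. Cd4-positive T cells, which are cells of T-lineage clusters with a Cd4 UMI and none of Cd8a or Cd8b1, numbered 4054 and 3899. Their 9 T-lineage markers summed to 5711 and 4969 CPM and their B cell markers to 104 and 75.7 CPM. Median depths were 3116 and 3408 UMIs in B-like cells and 4872 and 6307 UMIs in Cd4-positive T cells.

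The members lie at dispersed sites of the mouse genome (GRCm38, mm10): Rgs13 at chr1:144138654-144177372, S1pr2 at chr9:20962361-20976781, Bcl6 at chr16:23965052-23988852, Cxcr5 at chr9:44511787-44561877 and Il21 at chr3:37222759-37232636 on the minus strand, and Mef2b at chr8:70139711-70167488 and Sh2d1a at chrX:42502453-42529330 on the plus strand. Mef2b shares 7609 bases with Borcs8 on the same strand, so reads from the shared stretch could belong to either gene. Bcl6, Cxcr5, Il21 and Sh2d1a each overlap a gene on the opposite strand. Promoter windows of 300 bases, from 250 before to 50 after a transcription start, are printed here for Rgs13, S1pr2, Mef2b and Bcl6, because these 4 members were found together in single B-like cells. The sequences are from RefSeq (GRCm38.p6), read 5′ to 3′ along the gene's strand, and capitals mark matches, on either strand, to the motif named.
Rgs13, chr1:144177323-144177622, minus strand, GGAAAA (NFAT core) in capitals: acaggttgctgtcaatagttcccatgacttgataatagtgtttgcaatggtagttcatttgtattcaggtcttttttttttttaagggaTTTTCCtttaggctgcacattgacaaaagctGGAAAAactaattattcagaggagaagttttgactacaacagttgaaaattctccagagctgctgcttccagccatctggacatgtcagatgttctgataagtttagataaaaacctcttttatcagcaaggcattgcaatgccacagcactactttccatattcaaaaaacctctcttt
S1pr2, chr9:20976744-20977043, minus strand, TGACGTCA (cyclic AMP response element) in capitals: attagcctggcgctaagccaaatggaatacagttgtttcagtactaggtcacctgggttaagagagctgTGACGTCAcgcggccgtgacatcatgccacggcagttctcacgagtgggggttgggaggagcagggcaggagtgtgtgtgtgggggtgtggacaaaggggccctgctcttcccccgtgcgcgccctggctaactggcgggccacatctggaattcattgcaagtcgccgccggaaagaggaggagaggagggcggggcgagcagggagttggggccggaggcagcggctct
Mef2b, a RefSeq start inside the annotated gene at chr8:70152511-70152810, plus strand, ATGCAAAT (octamer) in capitals: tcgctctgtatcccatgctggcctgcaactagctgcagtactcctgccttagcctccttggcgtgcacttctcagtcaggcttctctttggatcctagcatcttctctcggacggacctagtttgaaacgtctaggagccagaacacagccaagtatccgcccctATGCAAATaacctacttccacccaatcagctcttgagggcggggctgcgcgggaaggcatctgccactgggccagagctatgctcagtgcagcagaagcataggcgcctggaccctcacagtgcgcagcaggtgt
Bcl6, an alternative start at chr16:23981234-23981533, minus strand, TTCNNNGAA (STAT or BCL6 type) and GGAAAA in capitals: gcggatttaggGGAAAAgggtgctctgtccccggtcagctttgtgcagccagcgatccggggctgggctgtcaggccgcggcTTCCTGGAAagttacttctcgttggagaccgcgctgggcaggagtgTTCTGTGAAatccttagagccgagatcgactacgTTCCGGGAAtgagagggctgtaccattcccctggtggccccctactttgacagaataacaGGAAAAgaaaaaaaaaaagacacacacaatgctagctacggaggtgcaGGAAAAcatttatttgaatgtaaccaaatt
Of the 7 members, 5 had an entry, with 6 windows among them, and Cxcr5 and Sh2d1a had none. Over 32851 promoter windows of the same length the octamer occurred in 1.74%, the cyclic AMP response element in 1.79%, TTCNNNGAA in 8.3% and GGAAAA in 23.4%. Both Bcl6 windows held TTCNNNGAA, and the window printed held 3 matches, a number reached or passed by 11 windows (0.0335%). GGAAAA was also found in the Il21 window. These matches describe the letters of the windows and no binding was measured.

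In B-like cells the 4 germinal centre markers did not move as a block between the libraries. Rgs13 was lower in LYZKL and S1pr2 was not detected there, Mef2b differed within its counting interval, and Bcl6 was not lower. The Rgs13 count was 103 UMIs in WTKL, or 47.7 CPM (38.9 to 57.8), and 25 UMIs in LYZKL, or 17.8 CPM (11.5 to 26.2). That is a level 2.68-fold lower in LYZKL, a log2 ratio of -1.42 (-2.12 to -0.78). These UMIs came from 15 cells in WTKL and 5 in LYZKL, and 69.9% and 100% of them sat in the 5 highest cells of each library. The interval of the ratio treats the UMIs as independent, which they are not when a few cells carry them. Counted by cells, 2.63% (1.48 to 4.30) of the WTKL and 1.33% (0.433 to 3.08) of the LYZKL B-like cells had an Rgs13 UMI, and these intervals overlap. After each cell was thinned to 2000 UMIs, which left out 49 and 30 shallower cells, the shares were 1.73% (0.793 to 3.25) and 0.867% (0.179 to 2.51). The lower LYZKL level of Rgs13 was therefore a difference between a handful of cells in each library. No neutrophil-like cell, the class read for background, had an Rgs13 UMI in either library. With cells of up to 20% mitochondrial UMIs admitted, the log2 ratio of Rgs13 was -2.03.

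S1pr2 gave 22 UMIs in 13 B-like cells of WTKL, or 10.2 CPM (6.38 to 15.4), and 0 UMIs in the B-like cells of LYZKL, although a barcode there with Rgs13 and Cd79a that was not kept had 1. Set against a floor of 3 UMIs, the LYZKL level was 4.78-fold lower, a value that leaves out the counting error of the 22 WTKL UMIs. The exact interval of the 0 LYZKL UMIs ran to 2.62 CPM, and that of 0 of 376 cells to a share of 0.976% with a UMI. S1pr2 was not restricted to B-like cells: neutrophil-like cells had 7.14 and 11.9 CPM, and macrophage- or monocyte-like cells 7.98 and 9.16 CPM. At 2000 UMIs per cell, 0.384% of the WTKL B-like cells had an S1pr2 UMI, against 1.68% of the neutrophil-like cells. On that share alone S1pr2 in B-like cells was not above its share in neutrophil-like cells. Neutrophil-like cells held up to 4 S1pr2 UMIs in a LYZKL cell, so they give no plain background for this gene. Within the B-like class S1pr2 was not spread evenly: 7 of the 15 WTKL cells with Rgs13 had an S1pr2 UMI (46.7%, 21.3 to 73.4), against 6 of the 555 without (1.08%).

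Mef2b gave 39.4 CPM (31.4 to 48.7) in WTKL and 29.1 CPM (20.9 to 39.5) in LYZKL. The log2 ratio of Mef2b was -0.43 (-1.01 to 0.12), so the difference did not exceed counting error. It was found in 48 and 36 B-like cells, or 8.42% and 9.57%, and at 2000 UMIs per cell in 4.61% and 5.20%, above the 0.840% and 0.845% of neutrophil-like cells. Of the cells with Mef2b, 11 of the 48 in WTKL (22.9%, 12.0 to 37.3) and 4 of the 36 in LYZKL (11.1%, 3.11 to 26.1) had Rgs13. Ighd, the heavy chain of naive B cells, was found in 23 (47.9%, 33.3 to 62.8) and 28 (77.8%, 60.8 to 89.9) of them. The intervals of the libraries overlap for both genes, narrowly for Ighd. Averaging CPM over cells instead of summing UMIs turned the sign of the Mef2b ratio, to 0.20.

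Bcl6 was measured at 106 CPM (92.8 to 121) in WTKL and at 134 CPM (115 to 154) in LYZKL B-like cells, which is 1.26-fold higher in LYZKL (log2 ratio 0.33, 0.048 to 0.62). It was spread over 164 and 131 cells, 28.8% and 34.8% of the class. With cells thinned to 2000 UMIs the Bcl6 shares were 19.2% (15.9 to 22.8) and 22.5% (18.2 to 27.3), which overlap, and neutrophil-like cells, of a lineage known to express Bcl6, had 26.3% and 22.8%. The interval reached 0 with classes from marker UMIs (-0.062 to 0.58), with CD3-positive cells left out (-0.044 to 0.60) and with doublets kept (-0.0034 to 0.56), and at 1000 UMIs per cell both shares were 11.3%. Most Bcl6-positive cells, 154 in WTKL and 128 in LYZKL, had no Rgs13 UMI.

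Of the T cell and shared members, Cxcr5 was the most abundant in UMIs, a receptor that resting follicular B cells are known to carry. It stood at 232 CPM (212 to 253) in WTKL and at 227 CPM (203 to 253) in LYZKL, a log2 ratio of -0.033 (-0.24 to 0.17), in 52.8% and 49.7% of the B-like cells. No difference in Cxcr5 was detectable at this depth. Il21 gave 1 UMI in each library. Sh2d1a gave 23 UMIs in 19 cells of WTKL, 10.7 CPM (6.75 to 16.0), and 1 UMI in LYZKL, 0.711 CPM, a lower level with a wide interval (log2 ratio -3.91, -9.27 to -1.28). Some T cell genes moved with it: Icos, a Tfh costimulatory receptor, was at 53.7 and 5.69 CPM, Tnfsf8 at 30.6 and 4.27 CPM and Cd40lg at 21.8 and 3.55 CPM. They belong to a list of 32 Tfh genes, of which 26 had at least 5 CPM in a library of B-like cells. Of those, 9 were higher and 17 lower in LYZKL. By 1.5-fold, 2 were higher, beside 8.81% of all genes tested, and 10 lower, beside 9.20%. In the 446 and 322 B-like cells without a CD3 UMI (Cd3e, Cd3d or Cd3g), Sh2d1a was at 5.99 and 0.847 CPM (log2 ratio -2.82, -8.28 to 0.029), and in the 124 and 54 cells with one it was at 21.3 and 0 CPM. In WTKL the Sh2d1a level of B-like cells equalled the 10.7 CPM of neutrophil-like cells. The part that T cell RNA has in the Sh2d1a difference was not tested, and the size of that difference changed with the cell classes, to -0.41 with coarser clusters (Leiden resolution 0.5) and -1.21 with classes taken from marker UMIs. Without the cell of each library that had the most Sh2d1a UMIs it was -2.12, against the floor.

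Of the 6 members with at least 5 CPM in a library of B-like cells, 3 were at least 1.5-fold lower in LYZKL (Rgs13, S1pr2, Sh2d1a), beside 9.20% of all 9714 genes at that level, and 0 were 1.5-fold higher, beside 8.81%. Il21 was under that minimum. S1pr2 and Sh2d1a met it in WTKL only, so a difference in that direction was built into their inclusion. In the cells without a CD3 UMI, Rgs13 stayed at 55.9 and 21.2 CPM and S1pr2 at 9.32 and 0 CPM.

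**Figure D1:**
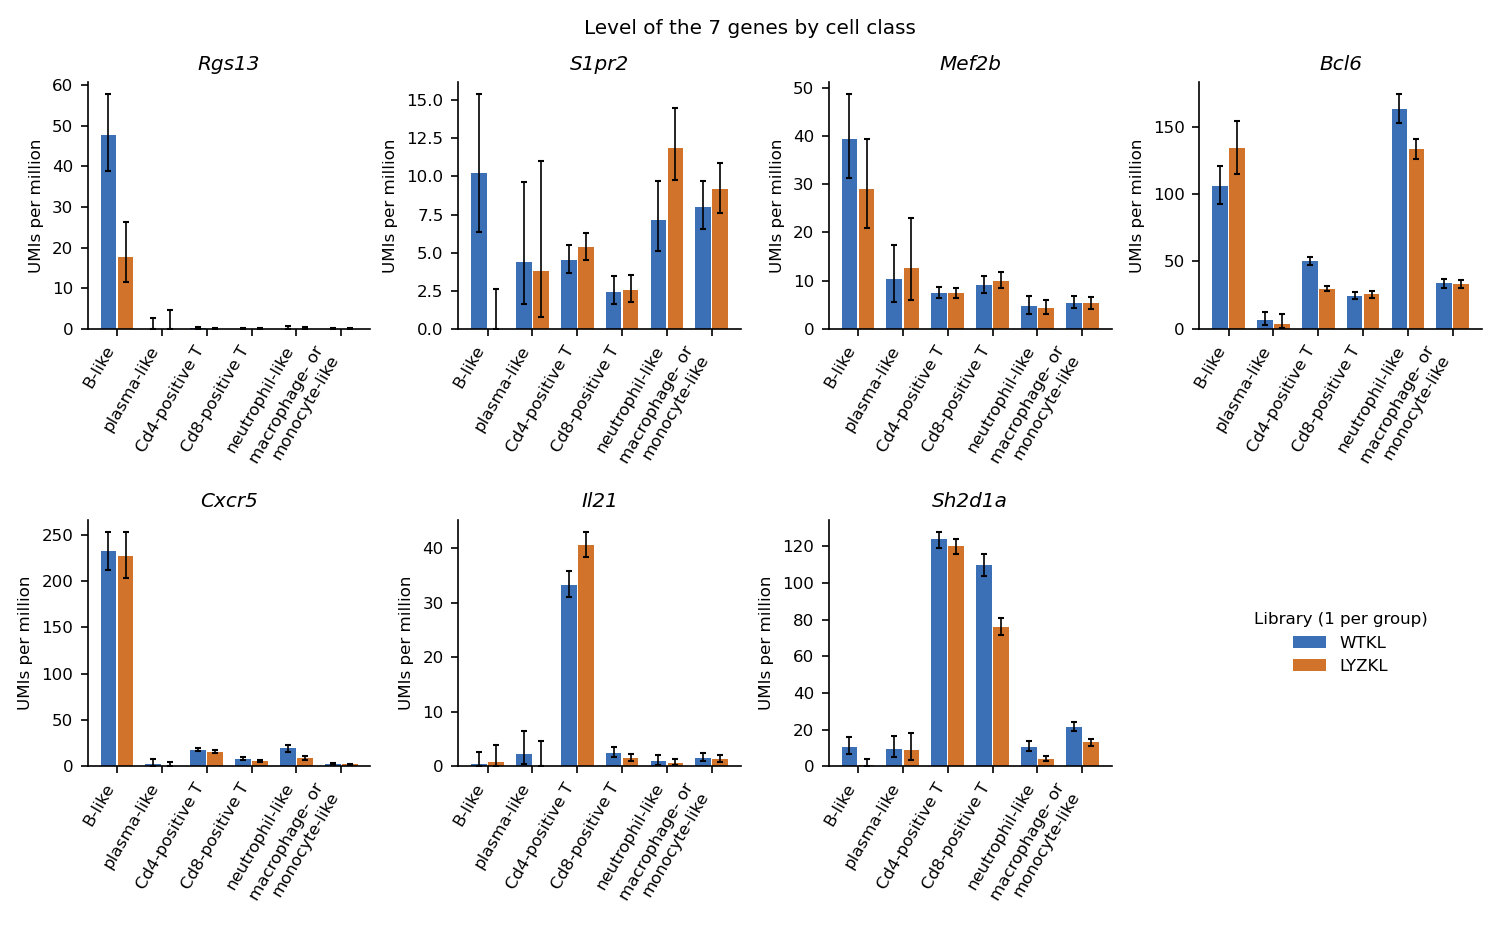
Level of each member, as CPM on a linear axis, in 6 cell classes of the WTKL and LYZKL libraries (1 library per group; error bars are exact Poisson 95% intervals, counting error only). Rgs13 stands at 47.7 and 17.8 CPM in B-like cells and at or near 0 elsewhere, Sh2d1a is high in T cells, and Bcl6 is high in B-like and neutrophil-like cells.

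**Figure D2:**
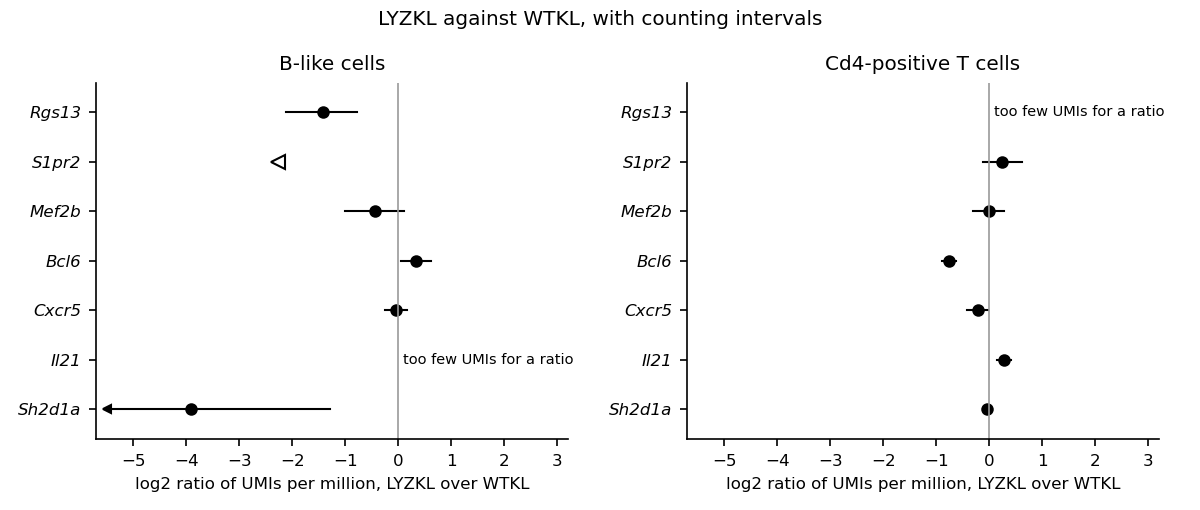
Log2 ratio of the LYZKL over the WTKL level of each member in the 2 classes, with conditional binomial 95% intervals that cover counting error only; the open triangle is a bound against the floor, and the arrow marks an interval that runs past the axis. Bcl6 was 0.33 in B-like cells and -0.76 in Cd4-positive T cells, and Rgs13 was -1.42 in B-like cells.

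The cells with Rgs13 carried other germinal centre genes in both libraries. Mef2b had a UMI in 11 of the 15 WTKL cells (73.3%, 44.9 to 92.2) and 4 of the 5 LYZKL cells (80.0%, 28.4 to 99.5), against 6.67% and 8.63% of the B-like cells without Rgs13. Mki67, a marker of cycling cells, had one in 9 and 3, and Fas, a death receptor high on germinal centre B cells, in 12 and 3. Ighd was found in 0 of the 15 and 1 of the 5, against 83.6% and 79.2% of the cells without Rgs13. S1pr2 and Gcsam, a germinal centre adaptor, were found in 7 and 6 of the 15 WTKL cells and in 0 of the 5 LYZKL cells, which are too few to show a difference. The cells with Rgs13 were deep, at a median of 11883 and 7821 UMIs against 3102 and 3387 in those without, so they had more chances to show any gene. Of the 15 WTKL cells, 3 also had Cd3e, and 0 of the 5 in LYZKL did.

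**Figure D3:**
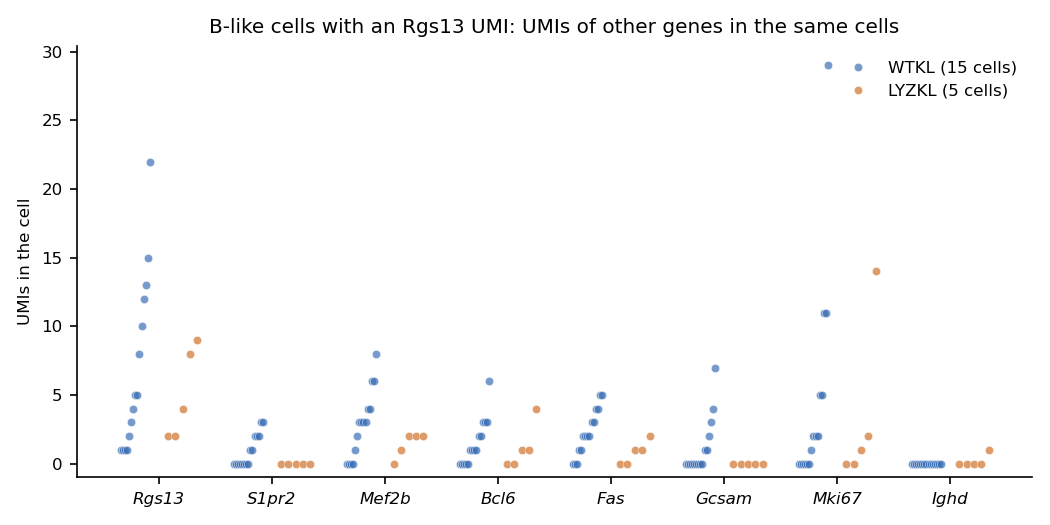
UMIs (y axis) of germinal centre and marker genes (x axis) in each B-like cell with an Rgs13 UMI, 15 cells of WTKL and 5 of LYZKL, each dot a cell. Mef2b is above 0 in most cells of both libraries, S1pr2 and Gcsam in WTKL cells only, and Ighd in 1 cell.

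As CPM, which takes depth into account, the cells with Rgs13 differed from the other B-like cells in the same direction in both libraries for 10 germinal centre list genes that were higher and 10 that were lower, of 23 with at least 20 UMIs in each library, with intervals clear of 0 in both libraries for 8 of the higher and 1 of the lower; this split was chosen after its values were seen. Basp1, a membrane protein raised in germinal centre B cells, was at 832 CPM with and 46.8 CPM without Rgs13 in WTKL, and at 593 and 19.1 CPM in LYZKL. Pou2af1, a coactivator of octamer-binding factors, was at 535 against 214 CPM and at 529 against 216 CPM. Ighg2b, a class-switched heavy chain, was at 588 against 172 CPM and at 889 against 64.0 CPM. Those 3 genes were at least 2-fold higher with Rgs13 in both libraries with 20 or more UMIs. Mybl1, a transcription factor of dividing germinal centre B cells, was at 215 and 8.55 CPM in WTKL and at 148 and 5.88 CPM in LYZKL. Genes of resting and recirculating B cells were often lower with Rgs13. Of 13 B cell identity genes with at least 20 UMIs in each library, 9 were lower and 2 higher in both. Intervals were clear of 0 in both libraries for 4 of the lower and 1 of the higher. Of 10 follicle and zone genes, 6 were lower and 1 higher in both, with such intervals for 3 of the lower. The lowest levels with Rgs13 given next rest on few UMIs. Ccr7, the receptor that leads cells to the T cell zone, was at 5.82 CPM with and 383 CPM without Rgs13 in WTKL and at 0 and 296 CPM in LYZKL, and Gpr183, which draws B cells to the outer follicle, was at 46.5 against 345 CPM and at 21.2 against 222 CPM. Bank1, a scaffold of B cell receptor signalling, was lower too, at 314 against 1446 CPM and at 190.5 against 1458 CPM.

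Over all barcodes, before filters, 26 in WTKL and 7 in LYZKL had an Rgs13 UMI, and 24 and 6 of these had Cd79a, a chain of the B cell receptor. Not kept were 6 WTKL barcodes with 35 Rgs13 UMIs and 2 LYZKL barcodes with 8. A further 5 WTKL cells were kept but lay outside the B-like cluster. Of these, 3 were in a histone-led cluster of cycling cells and had 4, 8 and 14 Rgs13 UMIs beside 27, 19 and 21 Cd79a UMIs, 4, 5 and 10 Mef2b UMIs, and 0, 1 and 0 CD3 UMIs. A LYZKL barcode that was not kept had 5 Rgs13, 50 Mki67, 25 Cd79a, 3 Mef2b and 1 S1pr2 UMIs beside 1 CD3 UMI. By these transcripts the B-like class missed dividing B cells with Rgs13 in both libraries. With doublets kept, Rgs13 stood at 41.4 and 10.6 CPM in B-like cells, a log2 ratio of -1.96.

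A broader gate, chosen after the data were seen, counted B-like cells with UMIs of at least 2 of Rgs13, S1pr2, Mef2b and Bcl6. It held 25 of 570 cells in WTKL (4.39%, 2.86 to 6.41) and 13 of 376 in LYZKL (3.46%, 1.85 to 5.84), at median depths of 10361 and 3619 UMIs. Thinned to 2000 UMIs per cell, it held 8 of 521 (1.54%) and 7 of 346 (2.02%), with intervals that overlap. Thinned to 1000 UMIs per cell, it held 6 of 567 (1.06%, 0.389 to 2.29) and 1 of 373 (0.268%, 0.00679 to 1.48), which overlap too. WTKL was thus the higher library unthinned and at 1000 UMIs, and the lower at 2000 UMIs. On such small counts no difference in the share of cells with several of these members was detectable.

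A list of 30 further germinal centre B genes was all measured at 5 CPM or more in B-like cells: 10 were higher and 20 lower in LYZKL, with 0 higher and 10 lower by 1.5-fold, and the median log2 ratio was -0.12 beside 0.012 over all genes tested, of which 51.4% were higher, 8.81% were 1.5-fold higher and 9.20% were 1.5-fold lower. The lowest of those at 30 CPM or more were Basp1, at 109 and 38.4 CPM (log2 ratio -1.51, -1.96 to -1.08), and Fas, at 39.8 and 19.2 CPM (-1.05, -1.73 to -0.41). The highest were Cd86, a costimulatory ligand of activated B cells, at 249 and 352 CPM (0.50, 0.32 to 0.68), and Myc, the transcription factor that licenses germinal centre B cells to re-enter division, at 147 and 189 CPM (0.37, 0.12 to 0.60). Basp1, lower in LYZKL, was also concentrated in the cells with Rgs13, as given above, while Cd86 and Myc were higher in LYZKL.

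B cell identity did not shift with these genes. Of 13 identity genes, 9 were higher and 4 lower in LYZKL, 0 of them by 1.5-fold, with a median of 0.019. Pax5, the factor that maintains B cell identity, was at 358 and 326 CPM, Cd79b at 724 and 717 CPM and Cd22, an inhibitory receptor, at 245 and 313 CPM. Of 10 measured genes for follicle and zone chemokines and receptors (of 18), 1 was higher and 9 lower, with a median of -0.37. Cr2, complement receptor 2, was at 151 and 100.2 CPM, and Fcer2a, the low-affinity IgE receptor of follicular B cells, was at 157 and 104 CPM, both at a log2 ratio of -0.60 (-0.89 to -0.31). In the same list S1pr1, the receptor for exit to the blood, was at 91.7 and 105 CPM and Ccr6 at 138 and 136 CPM. Immunoglobulin constant genes, a list added later, gave 7 measured of 8, of which 3 were higher and 4 lower, with Ighg1 at 65.8 and 4.98 CPM and Ighg2b at 205 and 91.7 CPM. Such transcripts are abundant in plasma cells, so free RNA can carry them; its part in these values was not tested.

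Among Cd4-positive T cells, where Bcl6, Cxcr5, Il21 and Sh2d1a are the Tfh members, Bcl6 was lower in LYZKL while Il21 was slightly higher and Sh2d1a differed within its counting interval. Bcl6 was at 50.3 CPM (47.4 to 53.3) in WTKL and at 29.7 CPM (27.7 to 31.7) in LYZKL, a 1.69-fold lower level (log2 ratio -0.76, -0.89 to -0.63). At 2000 UMIs per cell, 9.84% (8.93 to 10.8) and 6.36% (5.61 to 7.18) of the cells had a Bcl6 UMI, and these intervals do not overlap. Cxcr5 was at 18.0 CPM (16.3 to 19.8) and 15.5 CPM (14.1 to 17.0), a log2 ratio of -0.21 (-0.41 to -0.015). Il21 was at 33.3 CPM (31.0 to 35.8) and 40.6 CPM (38.3 to 43.0), 1.22-fold higher (0.28, 0.15 to 0.42). Sh2d1a was at 124 CPM (119 to 128) and 120.0 CPM (116 to 124), a log2 ratio of -0.042 (-0.11 to 0.03). By summed UMIs, the Tfh cytokine and the Tfh repressor thus differed in opposite directions over the class as a whole. The Il21 UMIs came from 285 and 437 cells, with up to 30 and 35 in a cell, and the interval of its ratio treats them as independent.

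Detection shares at 2000 UMIs per cell were 3.42% and 3.26% for Cxcr5, 3.93% (3.34 to 4.58) and 4.59% (3.95 to 5.30) for Il21, which overlap, and 19.1% and 19.3% for Sh2d1a. Neutrophil-like cells gave 3.05% and 1.44%, 0.153% and 0.0497%, and 1.37% and 0.746% for the same genes. The WTKL share of Cxcr5 over all Cd4-positive T cells was thus near that of neutrophil-like cells. Those cells held up to 7 Cxcr5 UMIs in a cell, so they give no plain background for Cxcr5. The other germinal centre members were low: S1pr2 was at 4.51 and 5.35 CPM, with shares of 0.906% and 0.965% below those of neutrophil-like cells, Mef2b at 7.44 and 7.42 CPM, and Rgs13 gave 2 and 0 UMIs. Of the 6 members with at least 5 CPM in a library, 1 (Bcl6) was at least 1.5-fold lower in LYZKL, beside 2.79% of all 9586 genes at that level, and 0 were 1.5-fold higher, beside 2.35%.

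Clusters within the Cd4-positive T cells placed the Tfh members. Cluster 8, led by Fbn2, Tbc1d4, Sostdc1, Slamf6 and Izumo1r, held 423 and 371 of these cells (10.4% and 9.52%) and carried the highest Cxcr5 levels, 119.7 CPM in WTKL and 81.9 CPM in LYZKL (log2 ratio -0.55, -0.82 to -0.27). The members were not used to find the clusters. In the same cells Bcl6 was at 131 and 73.5 CPM (-0.83, -1.11 to -0.55) and Sh2d1a at 344 and 233 CPM (-0.56, -0.72 to -0.40), while Il21 was at 75.0 and 73.9 CPM (-0.022, -0.34 to 0.30). In the cluster where the 4 Tfh members met, the receptor, the repressor and the adaptor were thus lower in LYZKL, and the cytokine differed within its interval. Cluster 8 held 148 of the 278 Cd4-positive T cells with Cxcr5 in WTKL (53.2%) and 114 of the 302 in LYZKL (37.7%).

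Bcl6 was lower in LYZKL in 9 of the 9 clusters with a ratio, by a log2 ratio of -0.89 to -0.37, and its interval lay below 0 in 6 of them. In cluster 2, with Igfbp4, Lef1 and Ccr7, genes of naive and memory T cells, among its leading genes, it was at 61.5 and 47.6 CPM. In Treg-like cluster 6 it was at 59.2 and 34.1 CPM, and in cluster 3, with Il17a and Ccl20 among its leading genes, at 42.7 and 23.1 CPM. The lower Bcl6 level was thus seen outside the Cxcr5-rich cluster as well. No such regularity was seen in the other Tfh members: Cxcr5 was higher in 5 and lower in 4 of 9 clusters, and Sh2d1a higher in 4 and lower in 5 of 9.

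Il21 was as high in a cluster almost without Cxcr5 as in the Cxcr5-rich one. In cluster 3 it was at 89.0 CPM (78.7 to 100.3) in WTKL and at 71.5 CPM (65.8 to 77.6) in LYZKL, where Cxcr5 was at 0.985 and 2.89 CPM. This cluster gave 271 of the 762 Il21 UMIs of the class in WTKL and 570 of the 1176 in LYZKL, and cluster 8 gave 158 and 175. Cluster 3 held 12.4% of the WTKL and 25.5% of the LYZKL Cd4-positive T cells, while cluster 4, led by Il17f and Il17a, held 23.4% and 9.16%. In cluster 4 Il21 was at 32.8 and 51.1 CPM (log2 ratio 0.64, 0.27 to 1.01), and in cluster 1, with Il22 and Trat1 among its leading genes, at 6.66 and 19.9 CPM (1.58, 1.04 to 2.15). In cycling cluster 16 it was lower, at 84.8 and 40.9 CPM (-1.05, -1.48 to -0.63). Across the 7 clusters with a ratio, Il21 was higher in LYZKL in 3 and lower in 4. The Il21 level of the whole class was thus a sum over clusters that differed in direction and in size.

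**Figure D4:**
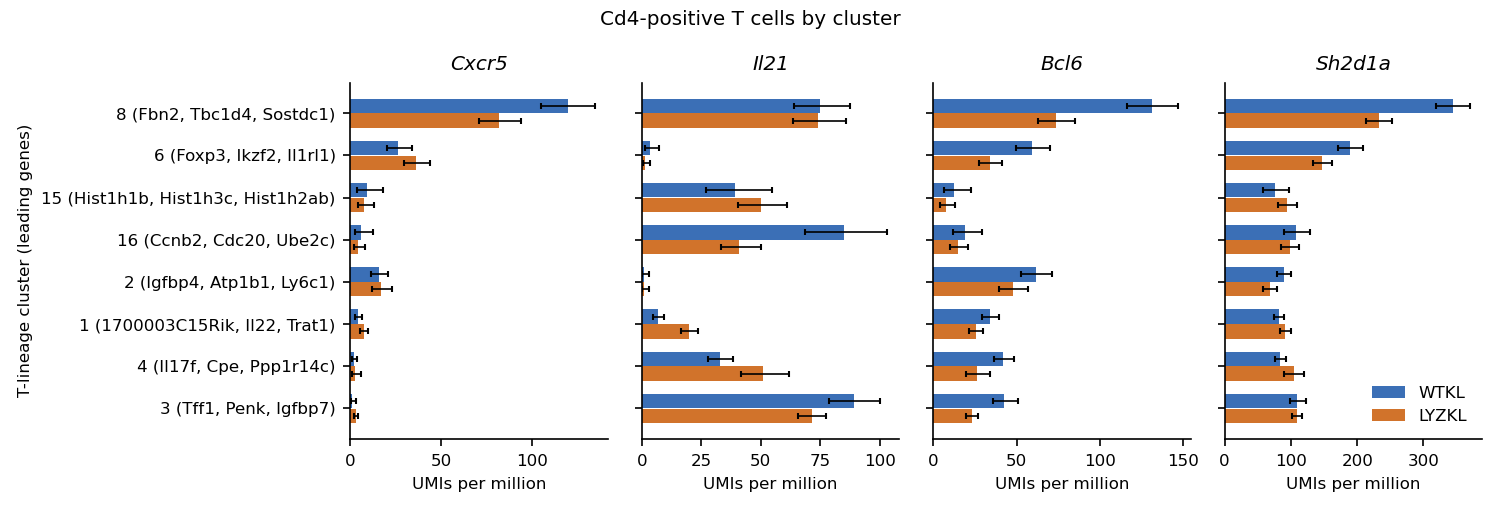
Level of Bcl6, Cxcr5, Il21 and Sh2d1a, as CPM, in each cluster with at least 50 Cd4-positive T cells per library, in WTKL and LYZKL (bars with exact Poisson 95% intervals; clusters ordered by the WTKL share of cells with Cxcr5, with their leading genes in parentheses). Cxcr5 peaked in cluster 8 at 119.7 and 81.9 CPM, Il21 was high in cluster 3 at 89.0 and 71.5 CPM, and Bcl6 was lower in LYZKL in each cluster drawn.

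Regulatory T cells can also carry Cxcr5 and Bcl6, as T follicular regulatory cells, so the class was split by Foxp3, their defining factor. In the 348 and 436 cells with a Foxp3 UMI, Cxcr5 was at 20.1 CPM in WTKL and at 28.6 CPM in LYZKL (log2 ratio 0.51, -0.0011 to 1.05). In the 3706 and 3463 cells without one it was at 17.8 and 13.6 CPM (-0.39, -0.60 to -0.17). Cxcr5 thus differed in opposite directions on the 2 sides of the split, with the interval of the Foxp3 side reaching 0; the difference between the sides was not tested. Bcl6 was lower in LYZKL on both sides, at 41.9 and 21.4 CPM with Foxp3 (-0.97, -1.42 to -0.52) and at 51.2 and 30.9 CPM without (-0.73). Il21 was at 8.47 and 7.23 CPM with Foxp3 and at 36.0 and 45.5 CPM without (0.34, 0.20 to 0.47). Of the cells with Cxcr5, 37 of 278 in WTKL (13.3%, 9.55 to 17.9) and 69 of 302 in LYZKL (22.8%, 18.2 to 28.0) had Foxp3, against 8.24% and 10.2% of those without Cxcr5. The LYZKL cells were deeper, which raises the chance of seeing any pair of genes. At 2000 UMIs per cell, Cxcr5 was detected in 3.51% (1.83 to 6.05) and 5.57% (3.60 to 8.17) of the cells with Foxp3 and in 3.42% (2.85 to 4.06) and 2.97% (2.42 to 3.59) of those without, and the intervals of the 2 libraries overlapped on each side.

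At the level of single cells, Cxcr5 went with Tfh genes in both libraries. Bcl6 was detected in 35.3% of the WTKL and 24.2% of the LYZKL cells with Cxcr5, against 19.7% and 15.1% of those without. Sh2d1a was detected in 64.0% and 65.2%, against 37.1% and 43.7%. Pdcd1, the gene of the PD-1 receptor that marks Tfh and exhausted T cells, was detected in 24.8% and 26.2%, against 19.6% and 26.5%, so it did not separate the Cxcr5 cells in LYZKL. Of the cells with Il21, 39 of 285 (13.7%, 9.92 to 18.2) and 55 of 437 (12.6%, 9.62 to 16.1) had Cxcr5, so most Il21-positive cells in either library showed no Cxcr5 UMI.

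Most Tfh list genes differed between cells with and without Cxcr5 in the same direction in both libraries. Of 29 list genes with at least 20 UMIs in each library, 19 were higher and 4 lower with Cxcr5 in both libraries, and the others did not keep their sign. Among those, Pdcd1 was at 91.1 CPM with and 64.1 CPM without Cxcr5 in WTKL (log2 ratio 0.51, 0.26 to 0.75) but at 56.8 and 76.8 CPM in LYZKL (-0.44, -0.69 to -0.19), and Icos was at 625 and 753 CPM (-0.27) but at 812 and 706 CPM (0.20). Sostdc1, a secreted BMP and Wnt antagonist, was at 47.7 CPM with and 1.89 CPM without Cxcr5 in WTKL and at 18.9 and 0.340 CPM in LYZKL. Few cells carried it: 9 of 278 with and 9 of 3776 without Cxcr5 in WTKL, and 2 of 302 and 3 of 3597 in LYZKL. Izumo1r, the folate receptor 4 of Tfh and regulatory cells, was at 322 against 80.5 CPM and at 275 against 78.0 CPM. The Il6 receptor chains went the same way, Il6st at 133 against 44.7 CPM and at 121 against 39.8 CPM, and Il6ra at 106 against 45.1 CPM and at 77.7 against 35.1 CPM. Id3, an inhibitor of E proteins that Tfh cells keep, was at 32.0 against 14.6 CPM and at 20.9 against 7.41 CPM. These 5 genes were at least 2-fold higher with Cxcr5 in both libraries. Of the members, Sh2d1a was at 293 and 110.3 CPM in WTKL and at 205 and 112 CPM in LYZKL, and Bcl6 at 108 against 45.8 CPM and at 52.0 against 27.5 CPM.

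Of 15 opponents of the follicular fate, 6 were higher and 6 lower with Cxcr5 in both libraries. Among the higher was Ccr7, at 183 CPM with and 81.7 CPM without Cxcr5 in WTKL and at 181 against 77.9 CPM in LYZKL. Prdm1, the repressor that counteracts Bcl6, was lower, at 26.6 CPM with and 62.3 CPM without Cxcr5 in WTKL and at 44.6 and 83.9 CPM in LYZKL. Id2, which opposes E proteins in effector T cells, was at 390.4 against 959.6 CPM and at 435 against 902 CPM. The same split by Il21 gave another profile. Klf2, a factor of T cell recirculation, was at 137 CPM with and 410.5 CPM without Il21 in WTKL and at 99.5 and 315 CPM in LYZKL, and Foxp3 was at 6.15 against 48.1 CPM and at 5.36 against 67.8 CPM. With Il21, 16 of the 29 Tfh list genes were higher and 9 lower in both libraries, among them Tox2, a Tfh transcription factor, at 109 against 43.5 CPM and at 115 against 62.2 CPM.

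**Figure D5:**
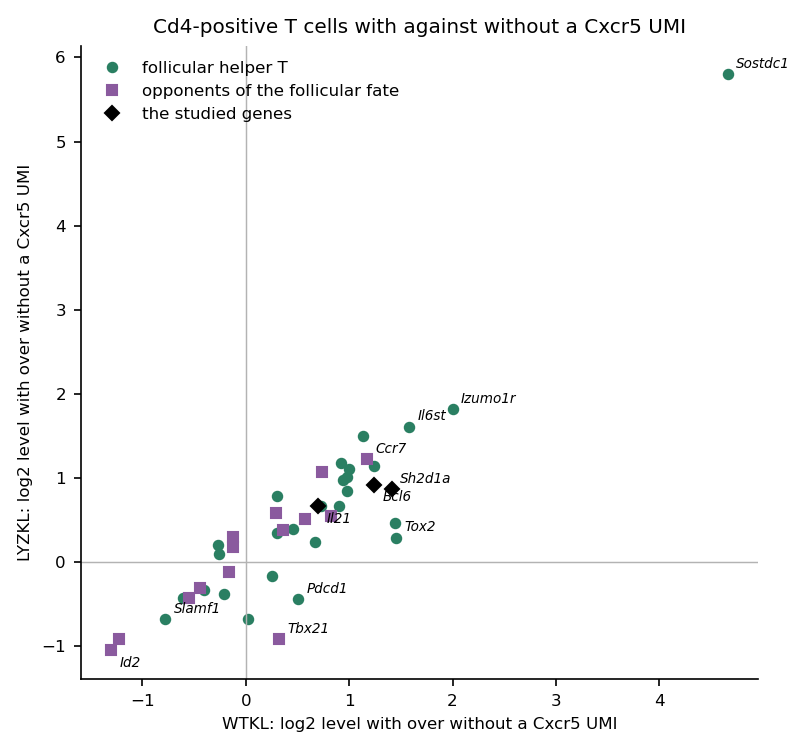
Log2 ratio of the level in Cd4-positive T cells with a Cxcr5 UMI over those without, WTKL on the x axis and LYZKL on the y axis, for genes of the Tfh list, the opponents and the members. Sostdc1 lies far up in both libraries (4.66 and 5.80), but its LYZKL value rests on 2 cells with Cxcr5 and 3 without. Id2 lies below 0 in both (-1.30 and -1.05), and Sh2d1a and Bcl6 lie above 0 in both.

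Between the libraries, the Tfh list had 28 of its 32 genes at 5 CPM or more in Cd4-positive T cells, of which 8 were higher and 20 lower in LYZKL, with 0 higher and 4 lower by 1.5-fold. The median log2 ratio was -0.071, beside -0.0082 over all genes tested, of which 48.5% were higher, 2.35% were 1.5-fold higher and 2.79% were 1.5-fold lower. Tox, a factor of Tfh and chronically stimulated T cells, was at 187 and 102 CPM (-0.88, -0.94 to -0.81), and Ly9, a SLAM family receptor that binds SAP, at 46.9 and 31.1 CPM (-0.59, -0.72 to -0.46). The highest were Tox2, at 50.1 and 70.3 CPM (0.49, 0.38 to 0.60), and Batf, an AP-1 factor needed for Tfh and Th17 cells, at 251 and 306 CPM (0.29, 0.24 to 0.33). Opponents of the follicular fate gave 7 higher and 8 lower of 15, with a median of -0.035. Klf2 was at 383 and 282 CPM and S1pr1 at 104 and 76.6 CPM, whereas Prdm1 was at 59.7 and 80.4 CPM (0.43, 0.33 to 0.53) and Il2ra, the high-affinity chain of the Il2 receptor, at 117 and 157 CPM. Bcl6 and Prdm1, which repress each other, thus differed in opposite directions between the libraries. Of 16 immediate early and heat shock genes, a sign of handling and activation, 1 was higher and 15 lower in LYZKL, with a median of -0.18; their part in the other differences was not tested.

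A Tfh-type gate counted Cd4-positive T cells with Cxcr5 and at least 1 of Bcl6, Il21 and Pdcd1. It held 145 of 4054 cells in WTKL (3.58%, 3.03 to 4.20) and 161 of 3899 in LYZKL (4.13%, 3.53 to 4.80). Thinned to 2000 UMIs per cell, it held 49 of 3972 (1.23%, 0.914 to 1.63) and 33 of 3836 (0.860%, 0.593 to 1.21), so the order of the libraries turned with depth and the intervals overlapped both times. Gated cells had Foxp3 in 17 of 145 (11.7%) and 32 of 161 (19.9%), and lay in cluster 8 in 94 (64.8%) and 71 (44.1%).

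Over the 8 named classes, each member had its own order of levels. Cluster 3 was left unnamed and is not among these classes. It gave 311 of the 976 Il21 UMIs of all kept cells in WTKL and 763 of the 1572 in LYZKL. Rgs13 was at 0 in plasma-, neutrophil- and macrophage- or monocyte-like cells and in Cd8-positive T cells of both libraries. Bcl6 was highest in neutrophil-like cells (163 CPM, 153 to 174, and 133 CPM, 126 to 141) in WTKL and at the same level as in B-like cells in LYZKL, and was at 33.7 and 33.1 CPM in macrophage- or monocyte-like cells. Cxcr5 was next highest after B-like cells in the Treg-like cluster, at 27.6 and 34.2 CPM, then in CD4 T-like clusters (18.9 and 21.0 CPM) and neutrophil-like cells (19.3 and 8.98 CPM), which are neighbours in WTKL. Sh2d1a was highest in the Treg-like cluster, at 178 and 133 CPM, then in CD4 T-like clusters at 114 and 109 CPM. Next came cycling-like clusters at 109 and 87.9 CPM and CD8 T-like clusters at 100 and 96.6 CPM, in that order in WTKL and reversed in LYZKL. By the per-cell gate, Cd8-positive T cells had 110.0 CPM (104 to 116) and 76.2 CPM (71.7 to 80.8) of Sh2d1a; these cells lay in different clusters in each library, with cluster 0, low in Sh2d1a at 81.2 and 68.1 CPM, holding 501 and 2129 cells. Mef2b was at 10.3 and 12.6 CPM in plasma-like cells and at 9.10 and 10.0 CPM in Cd8-positive T cells, well under its B-like level. Il21 was at 2.42 and 1.47 CPM in Cd8-positive T cells.

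The genes most like each member were ranked by Pearson's r of log2(CPM + 10) over 16 points, the 8 classes in 2 libraries, among 6998 genes; points of 1 library share its depth and its free RNA, and r is a description. Rgs13 was closest to Pik3c2b (0.956), Smagp (0.953) and Spib (0.953), and Mef2b to Neil1 (0.961), Pakap (0.936) and H2-Ob (0.934). S1pr2 had weaker likeness, led by Cxcl1 (0.783), Srxn1 (0.752) and Ppt1 (0.749). Bcl6 was closest to Rmdn1 (0.961), Klhl24 (0.961) and Eif5 (0.951), and Cxcr5 to Abhd17b (0.960), Egln2 (0.960) and Sh3pxd2a (0.957). Il21 was closest to Il22 (0.935), Cpe (0.929) and Il17a (0.921), and Sh2d1a to the T cell signalling genes Ubash3a (0.989), Cd6 (0.988) and Cd247 (0.988). The points leave out the unnamed cluster 3, where Il21 was at 80.8 and 78.7 CPM, so the genes nearest to Il21 were ranked without it.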

How the data were processed

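Raw UMI counts per gene and barcode were deposited by the authors as 1 matrix per library, made with the 10x 3' v3.0 kit per the labels' protocols and with Cell Ranger 6.1.2 on mm10 per the submitters' processing notes. Barcodes passed with 500 or more detected genes and no more than 10% mitochondrial UMIs (12003 and 13451). Scrublet's automatic threshold failed in WTKL, so in both libraries the highest doublet scores were removed at a preset 0.8% per 1000 cells. Cells were normalised to 10000 UMIs and clustered with scanpy 1.11.5 (2000 variable genes without the members, 30 components, 15 neighbours, Leiden resolution 1; Python 3.11.15), giving 25 clusters, 12 of them T-lineage. T-lineage clusters had a geometric mean of T markers of at least 250 CPM, a threshold set with the data known, and clusters were named from fixed markers. UMIs were summed per class and library and divided by the class total. Sums have exact Poisson, shares Clopper-Pearson and ratios conditional binomial 95% intervals. PCR and pooling errors are outside them. A 0 was set to a floor of 3 UMIs to give a ratio, which has no interval. Ratios were tested on simulated data. edgeR 4.0.16 (R 4.3.3) was used for TMM scaling only, as an alternative; others were the gene and mitochondrial limits, doublets kept, Leiden resolution, classes from marker UMIs, per-cell averages and the thinning depth. Genes named are the members, the 3 genes most like each, up to 2 highest and 2 lowest of each list at 30 CPM or more, and list genes 2-fold higher in both libraries in the Cxcr5 and Il21 splits; others were named after their values were seen. The members and lists were chosen with earlier results of these data known. Promoter windows are from RefSeq (GRCm38.p6). A few items, among them some genes of the lists, are not reported here.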

Additional observations from a re-analysis of the deposited data

How the results depend on the processing

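No member's called value changed direction under any alternative run. In B-like cells 74 of 77 recomputed log2 ratios kept within counting error of the value reported, or near it for S1pr2. In Cd4-positive T cells 83 of 84 did so, and of the list counts 20 of 20. The exceptions were, with CPM averaged over cells, Mef2b in B-like cells at 0.20 and Il21 in Cd4-positive T cells at 0.45; Sh2d1a in B-like cells at -0.41 with Leiden resolution 0.5 and at -1.21 with classes from marker UMIs; and the Bcl6 share in Cd4-positive T cells at a log2 ratio of -0.87 when cells were thinned to 1000 UMIs. Rgs13 in B-like cells ranged from -2.03 to -1.39 over 13 alternatives; without the cell of each library with the most Rgs13 UMIs, an alternative chosen after seeing the data, it was -1.72. Bcl6 ranged from 0.26 to 0.36 in B-like cells and from -0.80 to -0.72 in Cd4-positive T cells. TMM scaling shifted all ratios by -0.027 and 0.039. Leiden resolution 2 left the B-like class at 570 and 376 cells, and resolution 0.5 left the Cd4-positive T cells at 4054 and 3899, as in the main setting. In those classes these settings, like TMM scaling, could hardly move a ratio, yet they count among the 77 and 84. S1pr2 in B-like cells had no per-cell average because LYZKL held 0 UMIs, and its 12 alternatives, from -2.40 to -1.87, were judged without an interval. The list counts were judged by the percent of genes higher. Its intervals are wide, as with 17.3 to 52.8 for the germinal centre list in B-like cells. No library could be left out, and no paired analysis was possible because each group has 1 library.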

Other observations

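S1pr2 was higher in LYZKL than in WTKL in neutrophil-like cells, at 11.9 CPM (9.77 to 14.5) against 7.14 CPM (5.10 to 9.72), with 105 UMIs in 95 cells and 40 UMIs in 39 cells. At 2000 UMIs per cell the shares were 2.34% (1.72 to 3.09) and 1.68% (1.06 to 2.53), which overlap. Cluster 5, the neutrophil-like cluster with the most S1pr2 (15 and 19 CPM in WTKL and LYZKL), held 383 cells in WTKL and 1226 in LYZKL, and within the neutrophil-like clusters the log2 ratios were 0.34, -0.28 and 0.52, each with an interval that spans 0. Bcl6 in the same cells was at 133 CPM in LYZKL and 163 CPM in WTKL, so the direction of its difference there was that of the Cd4-positive T cells. Cxcr5 in Cd8-positive T cells was at 5.19 CPM (4.08 to 6.52) in LYZKL and 8.21 CPM (6.70 to 9.97) in WTKL; cluster 0, nearly without Cxcr5 (1.36 and 1.24 CPM), held 2129 and 501 cells, and within clusters 0, 9 and 12 the log2 ratios were 0.13, -0.17 and 0.38, each with an interval that spans 0. Bcl6 in Cd8-positive T cells was at 25.5 CPM (22.9 to 28.2) and 24.6 CPM (22.0 to 27.6).

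In cluster 3 of the Cd4-positive T cells, with Il17a and Ccl20 among its leading genes, S1pr2 was at 4.93 CPM in WTKL and at 10.0 CPM in LYZKL (log2 ratio 1.03, 0.22 to 1.93), the only interval above 0 for this gene among 8 clusters with a ratio. Sh2d1a was higher in LYZKL in the Cd4-positive T cells of cluster 9, led by Eomes and Gzmk, at 326 CPM against 177 CPM, although it was lower in LYZKL in cluster 8.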
